A study of Mus musculus with 6 samples.

Results

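Voltage-gated potassium channels of the Kv3 and Kv4 families and the KChIP proteins were examined in lumbar dorsal root ganglia, which hold the cell bodies of the sensory neurons of the trunk and limbs. The group was defined by NCBI mouse gene identifier and holds 9 of the 36528 genes in each deposited table. They are Kcnc1, Kcnc2 and Kcnc4 (Kv3.1, Kv3.2 and Kv3.4), Kcnd1, Kcnd2 and Kcnd3 (Kv4.1, Kv4.2 and Kv4.3), and Kcnip1, Kcnip2 and Kcnip4 (KChIP1, KChIP2 and KChIP4). Libraries of bulk RNA came from 2 groups of female mice aged 12 to 18 weeks. The knockout group (n = 3) carried Scn9a loxP/loxP and was pCAAG.Cre.ER positive, and the control group (n = 3) consisted of littermates that also carried Scn9a loxP/loxP but were pCAAG.Cre.ER negative. Scn9a encodes Nav1.7, a sodium channel of nociceptors. CreER is a recombinase that acts after an inducer such as tamoxifen, and the labels name neither an inducer nor its timing. The series title calls the deletion global, so it is not restricted to sensory neurons. Each library pooled 6 ganglia (L4 to L6) of 1 mouse.

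Kv3 channels open at depolarised voltages and close fast, which shortens action potentials. Kv3.4 is the Kv3 member of this group that also inactivates rapidly, and in nociceptors of rats it has been tied to spike repolarisation. Kv4 channels carry the A-type current, a transient potassium current below spike threshold that delays firing. KChIPs are calcium-binding proteins that attach to the N terminus of Kv4 subunits and set their surface level and gating.

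Total counts ranged from 40237131 to 63332040 per library. Levels are given in CPM, which here corrects each count for library total and TMM factor. Scn9a had 619.8, 565 and 574 CPM in knockout libraries, against 635, 611 and 557 CPM in control libraries, with a log2 fold change of -0.037 (95% interval -0.21 to 0.13). The count covers the whole gene and the labels do not name the floxed exons, so this value does not check the group labels. All 10 pan-neuronal markers were detected, with summed levels of 7430 to 8870 CPM in knockout and 7460 to 8230 CPM in control libraries. Knockout replicate 3 stood apart with a mean deviation of pan-neuronal markers from the control mean of -0.155 on the log2 scale. It also had the highest sums of macrophage markers (91.4 CPM, against 49.2 to 64.1 CPM in controls) and fibroblast markers (1228 CPM, against 703 to 963 CPM in controls). Control replicate 2 held skeletal muscle transcripts, with a summed level of 59.2 CPM against 5.65 to 8.46 CPM in the other libraries. For Kcnc4, Kcnc1, Kcnd3, Kcnd1 and the Kcnip1 row, results are given below with and without these libraries. In bulk samples, fewer cells of a type and less RNA per cell cannot be told apart.

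Windows around a transcription start of the 3 genes whose rows passed the test are shown because the results turn on these genes. Each runs 5′ to 3′ from 250 bases before to 50 bases after a RefSeq transcription start (GRCm38.p6). Capitals mark the GC box GGGCGG on either strand. RefSeq promoters were matched for 8 of the 9 genes, 14 promoters in all. The Kcnc4 window is chr3:107458849-107459148 on the minus strand. It lies wholly inside the span of that gene, whose 5′ end is at 107460287, and no window at that end was matched. The Kcnd3 window is chr3:105451640-105451939 on the plus strand. The most upstream of 3 Kcnip1 windows is chr11:33993144-33993443 on the minus strand.
Kcnc4: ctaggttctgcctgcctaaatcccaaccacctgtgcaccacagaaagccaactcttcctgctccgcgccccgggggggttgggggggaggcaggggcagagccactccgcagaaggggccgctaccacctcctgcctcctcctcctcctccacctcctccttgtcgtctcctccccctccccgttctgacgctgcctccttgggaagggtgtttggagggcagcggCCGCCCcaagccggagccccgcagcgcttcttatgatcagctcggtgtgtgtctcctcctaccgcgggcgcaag
Kcnd3: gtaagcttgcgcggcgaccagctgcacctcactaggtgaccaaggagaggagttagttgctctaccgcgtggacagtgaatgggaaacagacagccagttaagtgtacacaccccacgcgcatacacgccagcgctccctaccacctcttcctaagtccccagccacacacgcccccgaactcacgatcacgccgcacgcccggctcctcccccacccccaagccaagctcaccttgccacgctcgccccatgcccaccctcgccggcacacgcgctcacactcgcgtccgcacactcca
Kcnip1: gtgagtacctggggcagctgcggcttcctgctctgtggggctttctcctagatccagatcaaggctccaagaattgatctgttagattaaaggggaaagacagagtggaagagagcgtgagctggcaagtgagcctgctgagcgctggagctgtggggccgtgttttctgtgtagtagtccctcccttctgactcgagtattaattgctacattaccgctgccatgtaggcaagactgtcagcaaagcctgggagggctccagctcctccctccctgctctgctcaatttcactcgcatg

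The Kcnc4 window had a GC content of 66.7%, the Kcnd3 window 64.0% and this Kcnip1 window 54.3%, against a median of 52.7% over 32851 mouse promoters of the same length. The GC box, a common promoter element, was found in 6 of the 14 promoters and in 35.7% of all promoters. It occurred in the Kcnc4 window and in neither the Kcnd3 window nor the Kcnip1 window shown. Another Kcnip1 window, not shown, had a GC content of 66.7% and held 1 GC box, so the contrast depends on the start chosen. The letters TGTGGT, the core that RUNX factors bind, were found on either strand in 1 of the 14, that of Kcnc4, and in 16.8% of all promoters. The letters TGGAAA, an NFAT core, were found on either strand in 3 of the 14, 1 each of Kcnip1, Kcnip2 and Kcnip4, and in 21.4% of all promoters. No matches of different motifs overlapped in these 14 windows. The windows are not all separate, because those of Kcnc2 starting at 112270871, 112270873 and 112271023 overlap one another. By gene, the GC box was found in Kcnc1, Kcnc2, Kcnc4, Kcnd2, Kcnip1 and Kcnip2. The share by gene over all promoters was not computed. A match is a description of the letters and not of binding.

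Between knockout and control ganglia, Kcnc4 rose, Kcnd3 fell, and the Kcnip1 row also fell but shares many of its reads with another gene. In edgeR (quasi-likelihood, adjusted by Benjamini-Hochberg over 22043 tested genes) 3 of the 9 passed at 0.05, 1 higher and 2 lower. The share called over all tested genes was 0.726%, with 0.177% higher and 0.549% lower. DESeq2 also called 3 of the 9, against 2.27% of the genes it tested. With the counts of genes lying inside the 9 subtracted, edgeR called 2, Kcnc4 higher and Kcnd3 lower. All 9 passed the filter on low counts. The values of the groups did not overlap for 6 of the 9, against 15.9% of tested genes, and 6 had an unadjusted p under 0.05, against 10.5%. The median log2 fold change of the 9 was -0.038, against 0.0026 over all tested genes, and the median size without sign was 0.26, against 0.0895.

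**Figure D1:**
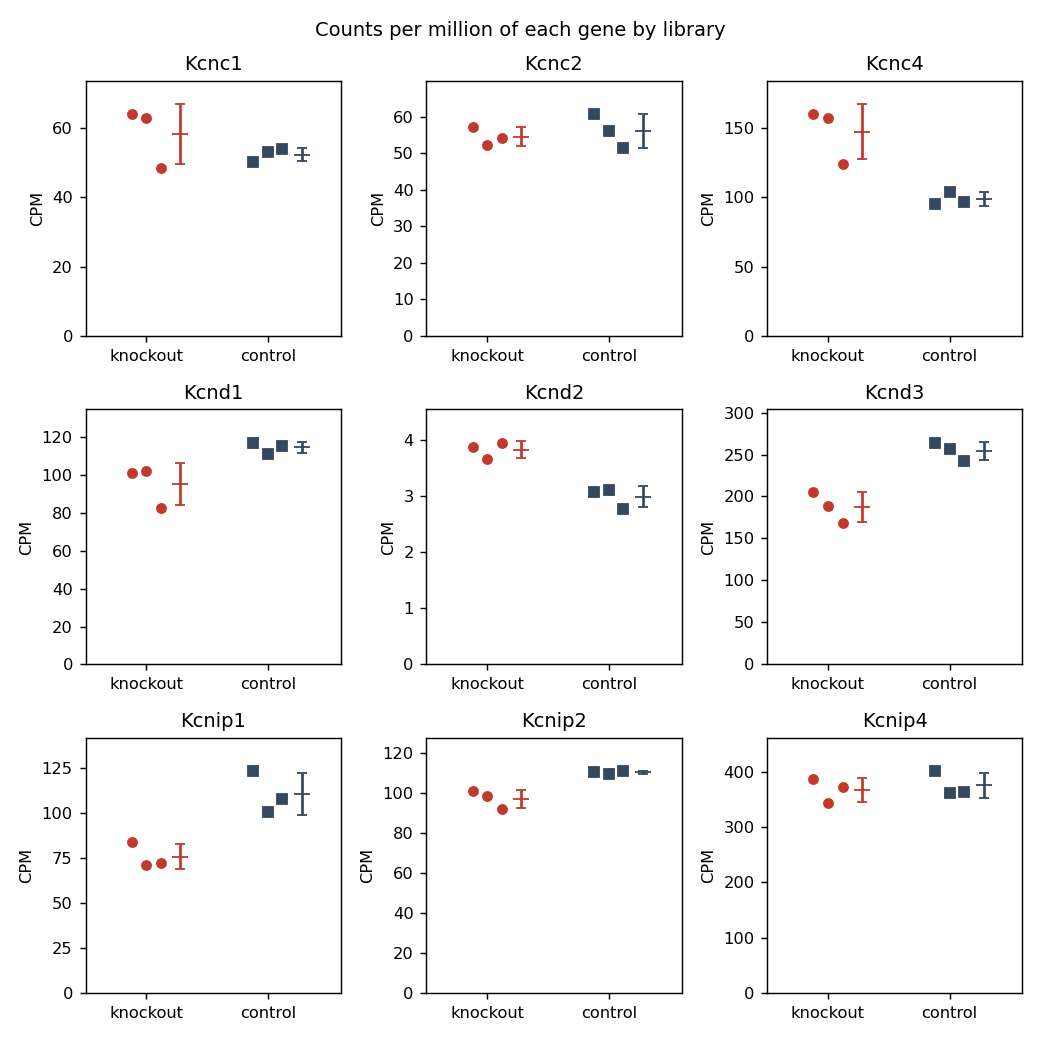
CPM (vertical axes, from 0) of the 9 genes in each library, knockout (circles, left) and control (squares, right), with the mean and SD (n = 3) beside the points. Kcnc4 lies at 124 to 160.0 CPM in knockout and 95.1 to 104 CPM in control libraries, and Kcnd3 at 169 to 205 CPM in knockout and 242 to 264 CPM in control libraries.

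Among the Kv3 genes, Kcnc4 (NCBI gene 99738, chromosome 3, 107438298 to 107460287, GRCm38) had 160.0, 157 and 124 CPM in knockout replicates 1 to 3, against 95.1, 104 and 97.0 CPM in control replicates 1 to 3. Every knockout library lay above every control library, and knockout replicate 3 was the lowest of the knockout group. The means were 147 ± 19.8 CPM in knockout and 98.7 ± 4.79 CPM in control ganglia (SD, n = 3 each). The log2 fold change was 0.58 ± 0.094 (SE), a rise of 49.1%, with an edgeR adjusted p of 0.0299. The adjusted p was 8.60e-07 by DESeq2 and 0.0318 by limma-voom. Without knockout replicate 3, the library with low neuronal markers, the log2 fold change was 0.68. Without that library and control replicate 2, which held the muscle transcripts, it was 0.72 with an edgeR adjusted p of 0.00481. Control replicate 2 had the highest Kcnc4 level of the control libraries, and the part of its muscle transcripts in that was not tested.

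The rise of Kcnc4 was uneven within its family. Kcnc1, the Kv3.1 gene of fast-spiking neurons, had 63.9, 62.7 and 48.3 CPM in knockout libraries, against 50.04, 52.9 and 53.8 CPM in control libraries. Knockout replicates 1 and 2 lay above all controls and knockout replicate 3 below them, so the groups overlapped. At 0.16 on the log2 scale (95% interval -0.059 to 0.38), Kcnc1 did not pass (edgeR adjusted p 0.640). Without knockout replicate 3 it passed the test (0.28, edgeR adjusted p 0.0240), but not without control replicate 2 as well (0.29, adjusted p 0.0926). Kcnc2, the Kv3.2 gene, had 57.2, 52.1 and 54.1 CPM in knockout and 60.6, 56.0 and 51.4 CPM in control libraries, with overlapping groups and a log2 fold change of -0.038 (95% interval -0.19 to 0.11). Counts of 1 gene per count of another do not depend on library scaling. Per count of Kcnc1 there were 2.5, 2.51 and 2.58 counts of Kcnc4 in knockout libraries, against 1.90, 1.97 and 1.80 in control libraries. In this ratio knockout replicate 3 lay beside the other knockout libraries, whereas in CPM it was the lowest for both genes. Per count of Kcnc2 there were 2.80, 3.02 and 2.30 counts of Kcnc4 in knockout libraries, against 1.57, 1.86 and 1.89 in control libraries.

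Among the Kv4 genes, Kcnd3 (NCBI gene 56543, chromosome 3, 105451890 to 105674002) had 205, 189 and 169 CPM in knockout libraries, against 264, 257 and 242 CPM in control libraries. The groups did not overlap, and the lowest control library was above the highest knockout library by more than the SD within either group. The means were 188 ± 18.0 CPM in knockout and 254 ± 11.1 CPM in control ganglia (SD, n = 3 each). The log2 fold change was -0.44 ± 0.079 (SE), a change of -26.2%, with an edgeR adjusted p of 0.0451. Adjusted p values were 2.00e-05 by DESeq2 and 0.0407 by limma-voom. With DESeq2's size factors in place of TMM factors in edgeR the adjusted p was 0.0531, so the call sits at the threshold. Without control replicate 2 and knockout replicate 3 the log2 fold change was -0.36 and the adjusted p 0.0966. Reads of Kcnd3os, an antisense gene at the 5′ end, amounted to 1.76% to 2.33% of the Kcnd3 count.

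Kv4.3 is known from unmyelinated, mostly non-peptidergic sensory neurons, and some of the transcripts that mark such neurons were also called lower in the knockout libraries. The marker lists were chosen with earlier results of these data known, so their calls are not an independent test. Over all tested genes 0.549% were called lower. The summed level of 5 C-fibre low-threshold mechanoreceptor markers was 175 to 219 CPM in knockout and 288 to 291 CPM in control libraries, with 4 of the 5 called lower. That of 7 non-peptidergic nociceptor markers was 1320 to 1440 CPM in knockout and 1630 to 1680 CPM in control libraries, with 3 of the 7 called lower (Mrgprd, Plxnc1 and Prkcq). The other 4 overlapped between the groups, and P2rx3 had 507, 517 and 453 CPM in knockout libraries, against 458, 462 and 482 CPM in control libraries. The sum of 5 peptidergic nociceptor markers was 2460 to 2630 CPM in knockout and 1990 to 2310 CPM in control libraries, with 0 of the 5 called. That of 9 large-diameter A-fibre markers was 2670 to 3850 CPM in knockout and 2650 to 3230 CPM in control libraries, with 0 of the 9 called. The part of these neuron types in the differences of Kcnd3 and Kcnc4 was not tested. With libraries scaled to the 10 pan-neuronal markers instead of TMM, Kcnd3 had a log2 fold change of -0.43 (edgeR adjusted p 0.0280) and Kcnc4 0.59 (0.00918). Of these 10 markers 0 were called, but they were not all level. Isl2 had 172, 167 and 142 CPM in knockout libraries, against 226, 213 and 205 CPM in control libraries. Tubb3 had 1810, 1990 and 1530 CPM in knockout libraries, against 1400, 1320 and 1570 CPM in control libraries.

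Kcnd1, the Kv4.1 gene, had 101, 102 and 82.6 CPM in knockout libraries, against 117, 111 and 116 CPM in control libraries. The groups did not overlap, but its log2 fold change of -0.26 (95% interval -0.45 to -0.080) had an edgeR adjusted p of 0.258. Without knockout replicate 3, its lowest library, the log2 fold change was -0.17, and without control replicate 2 as well it was -0.19. Kcnd2, the Kv4.2 gene, was the least abundant, with 232, 225 and 210 counts in knockout and 125, 172 and 175 counts in control libraries. In CPM this was 3.87, 3.66 and 3.95 in knockout and 3.08, 3.11 and 2.77 in control libraries, and the groups did not overlap. Its log2 fold change was 0.36 (95% interval 0.11 to 0.61), opposite in sign to that of the other Kv4 genes, with an edgeR adjusted p of 0.256. DESeq2 called neither Kcnd1 (adjusted p 0.118) nor Kcnd2 (0.319). Per count of Kcnd1 there were 2.02, 1.84 and 2.04 counts of Kcnd3 in knockout libraries, against 2.25, 2.31 and 2.10 in control libraries, which did not overlap.

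Kcnc4 and Kcnd3 lie on the same chromosome, with 1.76 Mb between them, and moved in opposite directions. There were 0.781, 0.833 and 0.737 counts of Kcnc4 per count of Kcnd3 in knockout libraries, against 0.360, 0.406 and 0.400 in control libraries. Of 29 tested genes lying between them, edgeR called 0 at an adjusted p under 0.05 and 4 had an unadjusted p under 0.05, against 10.5% of all tested genes. Their log2 fold changes ranged from -0.71 to 0.54 with a median of 0.025.

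**Figure D2:**
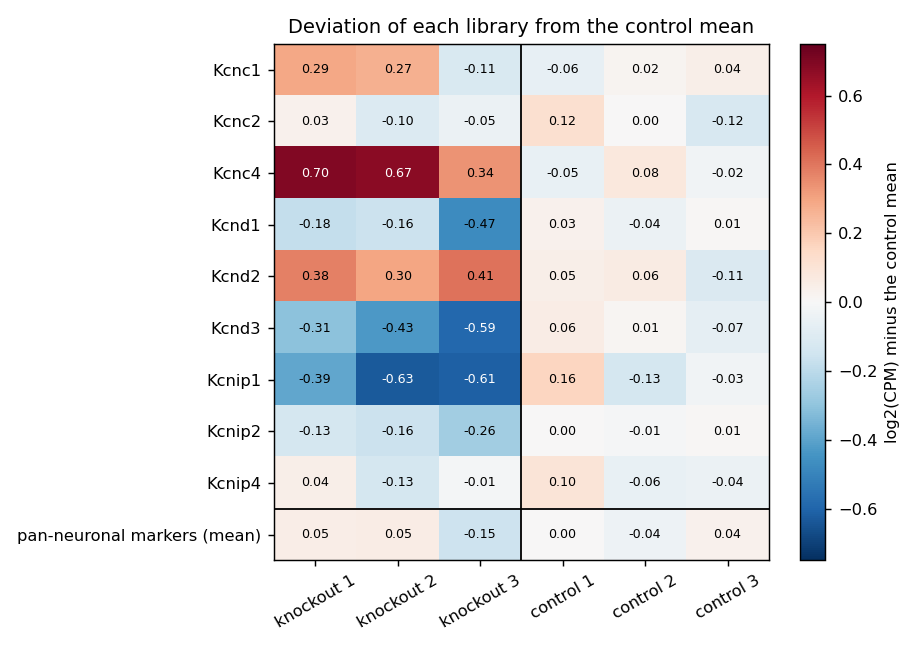
Difference of log2(CPM) from the mean of the control libraries for each gene (rows) and library (columns, knockout left of control), with the mean of 10 pan-neuronal markers in the last row. Kcnc4 is 0.70, 0.67 and 0.34 above the control mean in knockout replicates 1 to 3, while Kcnd3 is lower by 0.31, 0.43 and 0.59.

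Among the KChIP genes, the row of Kcnip1 (NCBI gene 70357, chromosome 11, 33629339 to 33993348) had 84.1, 71.3 and 72.2 CPM in knockout libraries, against 123, 101 and 108 CPM in control libraries. The groups did not overlap, and the log2 fold change of the deposited counts was -0.54 ± 0.089 (SE) with an edgeR adjusted p of 0.0299. Kcnmb1, which encodes the beta 1 subunit of the large-conductance calcium-activated potassium channel, lies wholly inside Kcnip1 on the opposite strand (33962955 to 33973641). Kcnmb1 had 26.0, 21.5 and 24.2 CPM in knockout libraries, against 56.6, 40.8 and 44.5 CPM in control libraries, a log2 fold change of -0.98 ± 0.12 (SE) with an edgeR adjusted p of 0.00585. Its count equalled 30.9%, 30.1% and 33.5% of the Kcnip1 count in knockout libraries, against 45.9%, 40.6% and 41.2% in control libraries.

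The deposited counts appear to assign the reads of such an inner gene to the outer gene as well. Among genes whose deposited width was within 2% of their span, there were 889 pairs with 1 lying wholly inside the other and at least 200 counts in the inner gene over all 6 libraries. In 0 of these pairs did the inner gene have more counts than the outer one, and this included 225 pairs known to lie on opposite strands. Inside Kcnmb1 there were 120 to 146 counts per kilobase in knockout and 211 to 263 in control libraries. In the rest of Kcnip1 there were 7.23 to 9.87 counts per kilobase in knockout and 7.68 to 11.4 in control libraries. This remainder is the Kcnip1 count less the Kcnmb1 count, so it presumes the shared reads and does not test them. Counts per kilobase were not scaled for library total, so their ranges do not compare the groups.

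After subtraction of the counts of the genes inside it, Kcnip1 had 55.1, 48.1 and 46.2 CPM in knockout libraries, against 62.0, 55.7 and 61.0 CPM in control libraries. The highest knockout library then lay just below the lowest control library. The log2 fold change was -0.26 (95% interval -0.42 to -0.091) with an edgeR adjusted p of 0.233, so Kcnip1 no longer passed. Subtraction of the whole count of every overlapping gene gave -0.30 and an edgeR adjusted p of 0.281. The groups then overlapped (36.1 to 47.2 CPM in knockout and 46.0 to 52.5 CPM in control libraries). This also removed the full count of a gene with only 19388 of its 124594 bases inside Kcnip1. Reads from outside Kcnip1 may thus have been subtracted, and their part in the overlap of the groups was not tested. Without control replicate 2 and knockout replicate 3, the deposited Kcnip1 counts gave -0.57 and an adjusted p of 0.0549. Of the difference of 34.8 CPM between the group means of the Kcnip1 row, 23.4 CPM (67.2%) equalled the difference of Kcnmb1. This subtraction was chosen after the values were seen.

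**Figure D3:**
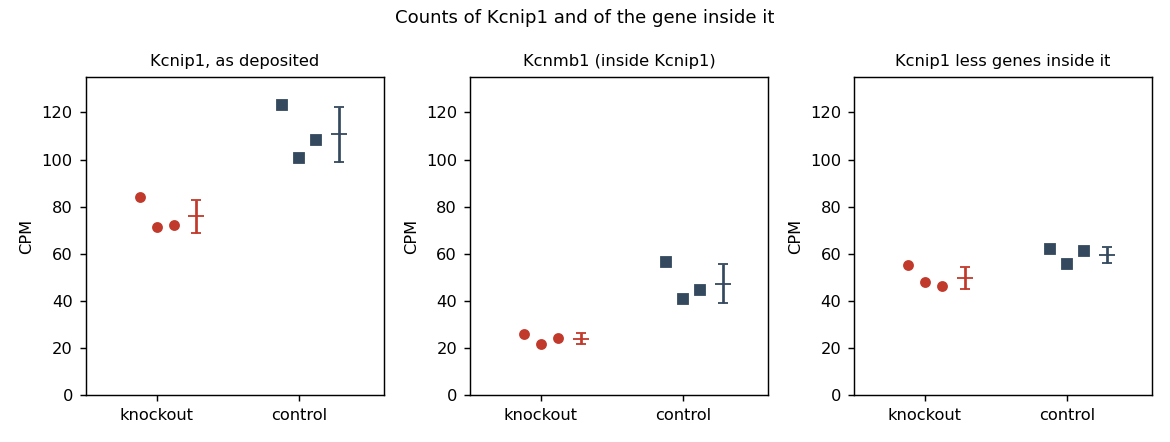
CPM (vertical axes, from 0) of the Kcnip1 row as deposited, of Kcnmb1, and of Kcnip1 after subtraction of the genes inside it, in knockout (circles, left) and control (squares, right) libraries with mean and SD (n = 3). The gap between the groups is 34.8 CPM in the left panel and 23.4 CPM in the middle panel.

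Kcnip2, the KChIP gene of heart and brain, had 101, 98.4 and 91.9 CPM in knockout libraries, against 110.3, 109.5 and 111 CPM in control libraries. Its control libraries were the closest of any of the 9 genes, with a coefficient of variation of 0.567%. The groups did not overlap, but the log2 fold change of -0.18 (95% interval -0.31 to -0.063) had an edgeR adjusted p of 0.240 and did not pass. The summed level of 4 cardiac muscle markers was 22.1 to 25.9 CPM in knockout and 24.1 to 27.9 CPM in control libraries. Most of it was Myh6 (19.4 to 23.1 CPM in knockout and 22.2 to 25.4 CPM in control libraries), while Tnnt2 and Actc1 were at most 0.301 CPM in every library, and the part of these transcripts in the Kcnip2 values was not tested. Kcnip4 was the most abundant of the 9 in CPM, with 386, 343 and 372 CPM in knockout and 401, 361 and 364 CPM in control libraries. The groups overlapped, with a log2 fold change of -0.033 (95% interval -0.20 to 0.13) and an edgeR adjusted p of 0.923. The gene 5730480H06Rik lies inside Kcnip4 and its count was 14.6% to 17.1% of that of Kcnip4. After its subtraction the log2 fold change of Kcnip4 was -0.017 (95% interval -0.19 to 0.16).

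Partner genes of these channels did not pass the test. The list of 17 held auxiliary subunits, other rapidly inactivating subunits and binding proteins, of which 16 were tested and Kcne1 was not, with at most 3 counts in a library. By edgeR 0 of the 16 were called, and DESeq2 and limma-voom also called 0. Of the 16, 1 had an unadjusted p under 0.05 in edgeR, against 10.5% of all tested genes. This was Dpp10, which encodes a transmembrane partner that speeds Kv4 gating. Log2 fold changes of the 16 had a median of 0.038, and the groups did not overlap for 2 of them (12.5%), against 15.9% of all tested genes. Dpp10 had 334, 297 and 279.8 CPM in knockout libraries, against 399, 365 and 340.5 CPM in control libraries. The groups did not overlap, and the log2 fold change was -0.28 (95% interval -0.47 to -0.084) with an edgeR adjusted p of 0.260 and a DESeq2 adjusted p of 0.0565. The next smallest p values belonged to Kcna4, the rapidly inactivating Kv1.4 subunit (-0.19), and to the Kv beta subunit genes Kcnab2 (0.18) and Kcnab1 (-0.12). Their edgeR adjusted p values were 0.560, 0.585 and 0.634. Dpp6, the partner related to Dpp10, had a log2 fold change of -0.075 (95% interval -0.27 to 0.12). Kcnip3, the KChIP3 gene, had a log2 fold change of -0.13 (95% interval -0.33 to 0.075).

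**Figure D4:**
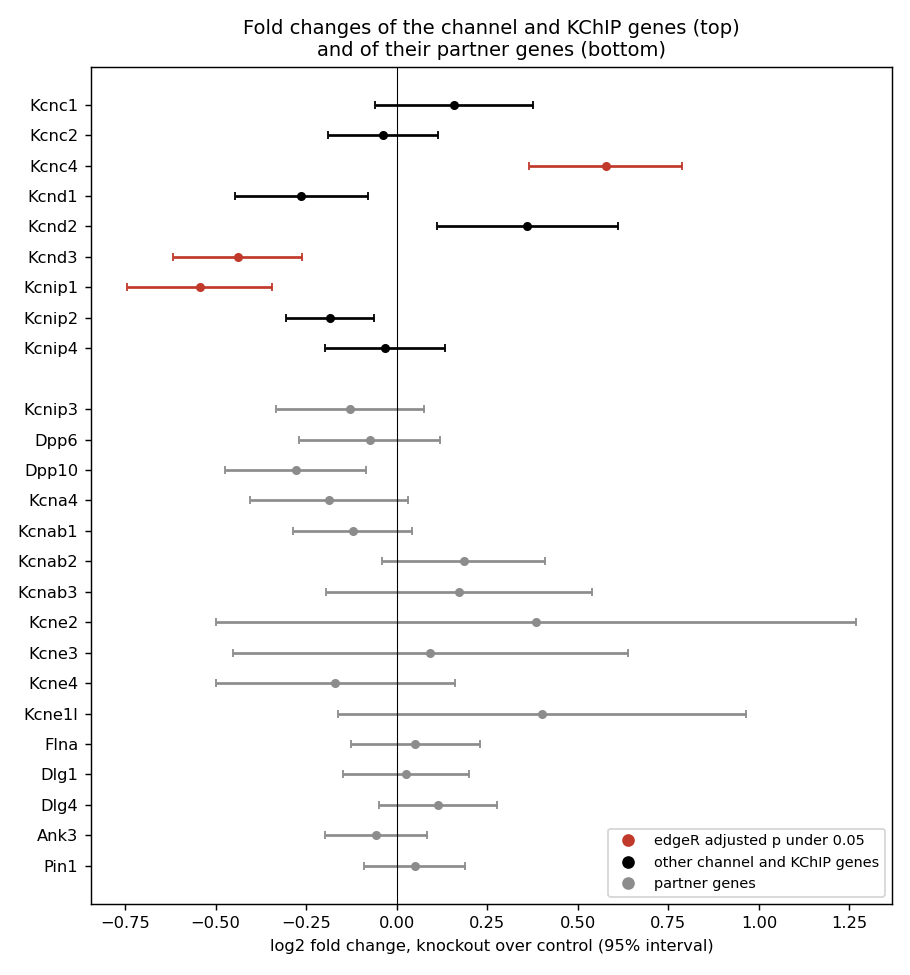
Log2 fold change, knockout over control, with 95% intervals for the 9 genes (top) and 16 tested partner genes (bottom, grey); red marks an edgeR adjusted p under 0.05. Kcnc4 lies at 0.58, Kcnd3 at -0.44 and the Kcnip1 row as deposited at -0.54, and no partner gene is red.

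Levels of different genes can be compared per length. On the deposited RPKM scale, which divides by the authors' gene width, Kcnd1 was highest, with 7.60 ± 0.740 RPKM in knockout and 9.27 ± 0.217 RPKM in control ganglia (SD, n = 3 each). Kcnc4 ranked 2 of 9 in knockout ganglia with 6.85 ± 0.788 RPKM, and 3 of 9 in control ganglia with 4.67 ± 0.247 RPKM. Kcnip2 had 4.13 ± 0.106 RPKM in knockout and 4.76 ± 0.0133 RPKM in control ganglia. In knockout libraries the ranges of Kcnc4 and Kcnip2 were apart (5.95 to 7.33 and 4.01 to 4.21 RPKM), and in control libraries they overlapped (4.50 to 4.95 and 4.74 to 4.77 RPKM). Kcnc1 (1.39 in knockout and 1.27 in control) and Kcnd3 (0.854 in knockout and 1.18 in control) followed, and their ranges overlapped in control libraries. Kcnip4, the Kcnip1 row and Kcnc2 lay between 0.197 and 0.362 RPKM in all libraries, and in control libraries the ranges of neighbours among them overlapped. The Kcnip1 row appears to hold reads of Kcnmb1, and its rank without them was not computed. Kcnd2 was lowest, with 0.00752 RPKM in knockout and 0.00595 RPKM in control ganglia.

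This order depends on the length used, because the deposited width includes introns. With the same counts divided by the summed exon length of the GENCODE M21 annotation, Kcnip4, whose span exceeds that of the other genes, moved from rank 6 to rank 1, with 102 ± 6.44 RPKM in knockout and 106 ± 6.45 RPKM in control ganglia. Kcnc4 again ranked 2 in knockout and 3 in control ganglia, and Kcnd2 was again last. In control libraries the ranges of Kcnc4 (26.59 to 29.25 RPKM) and Kcnd3 (25.68 to 28.25 RPKM) overlapped, so their order there is not resolved. Kcnd1 then ranked 5, with 18.2 ± 1.77 RPKM in knockout and 22.2 ± 0.520 RPKM in control ganglia. Where counts include intronic reads, levels per exon length are too high for genes with long introns.

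The profile over the 6 libraries most like that of Kcnd3, among 11504 genes averaging 10 CPM or more, was that of Plxnc1, a semaphorin receptor gene of non-peptidergic nociceptors. Likeness was the root-mean-square difference of log2(CPM + 1) after centring each gene. It was 0.0222 for Plxnc1, 0.0291 for Isl2, a sensory neuron transcription factor gene, and 0.0336 for Casz1, a zinc finger gene. Isl2 is also 1 of the 10 pan-neuronal markers used for scaling above. Plxnc1 had 419, 389 and 353 CPM in knockout libraries, against 546, 513 and 508 CPM in control libraries. Closest to the Kcnip1 row were Rarres1 (0.0428), Tafa4, a marker of C-fibre low-threshold mechanoreceptors (0.0511), and Gng4, a G protein gamma subunit gene (0.0587). Closest to Kcnc4 were Gm5424 (0.0666), Steap3, a metalloreductase gene (0.0866), and a gene without a symbol in the annotation used (0.0947). Kcnd3 thus had nearer neighbours than Kcnc4 on this scale. Such likeness is a description of 6 libraries.

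The calls of all 3 genes depended on which libraries were used, and none was kept without any 1 of the control libraries. Kcnc4 kept its call in 1 of 6 fits with 1 library left out, that without knockout replicate 3 (edgeR adjusted p 0.000749), and had adjusted p values up to 0.173 in the others. Kcnd3 kept it in 2 of 6, without knockout replicate 1 (0.0391) or 3 (0.0190), with values up to 0.240 otherwise. The Kcnip1 row kept it in 2 of 6, without knockout replicate 1 (0.0209) or 3 (0.0322), with values up to 0.122 otherwise. The fold changes moved less. They ranged over these fits from 0.52 to 0.68 for Kcnc4, from -0.50 to -0.37 for Kcnd3 and from -0.62 to -0.46 for the Kcnip1 row.

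**Figure D5:**
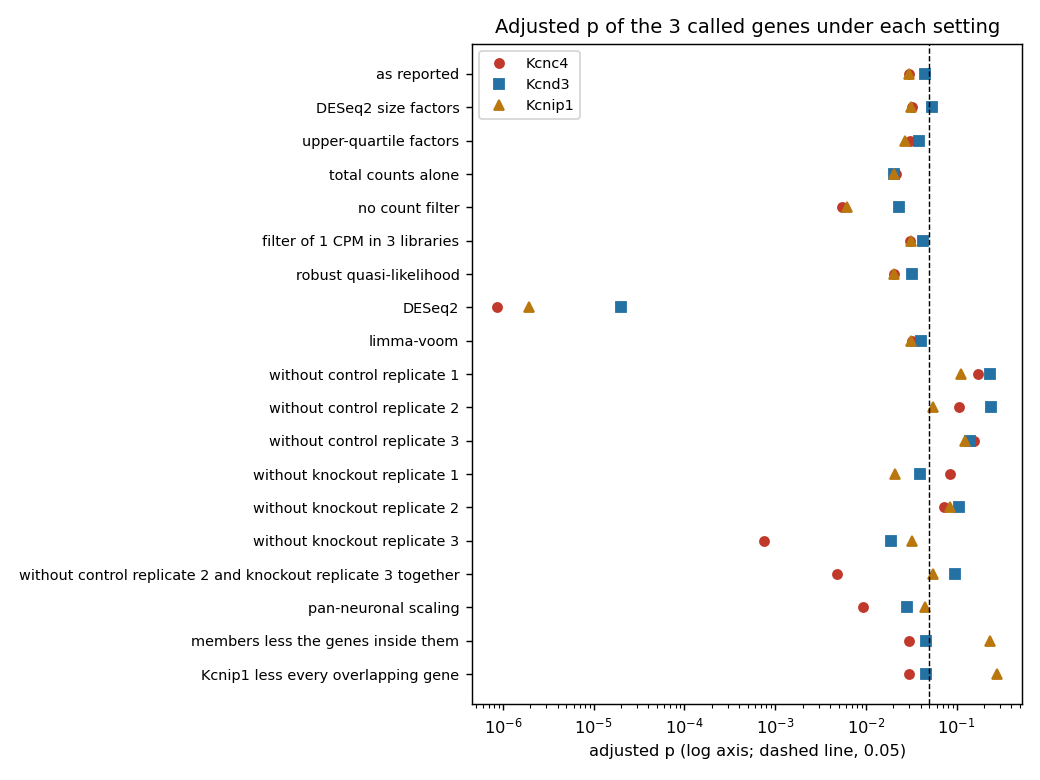
Adjusted p (horizontal log axis) of Kcnc4, Kcnd3 and the Kcnip1 row under each setting (rows), with a dashed line at 0.05; libraries left out are named in the rows. All 3 lie right of the line in the 3 fits that leave out a control library, and Kcnip1 lies at 0.233 and 0.281 after subtraction of genes that overlap it.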

How the data were processed

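Per the labels, total RNA of 6 pooled ganglia of 1 mouse made each library. The submitters' processing notes name the aligner GSNAP and the build GRCm38 (mm10). How reads were counted, with which annotation and whether by strand, is not given in the sources used here. For every gene, the authors deposited a count, a width and an RPKM value (count per width and library total), per the file headers. Width is within 5% of the GRCm38.p6 gene span, introns included, for 77.7% of genes, and the sum of counts exceeds the library total behind the deposited RPKM by 1.46% to 2.17%. Of 36528 identifiers, 31049 matched a RefSeq symbol. Identifiers without a symbol held 1.91% of counts.

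Counts were filtered with filterByExpr (edgeR 4.0.16, R 4.3.3), which left 22043 genes, scaled with TMM factors and tested with glmQLFit and glmQLFTest for the group, with Benjamini-Hochberg adjustment and a threshold of 0.05. The standard error is the log2 fold change divided by the square root of F. The step was run once on simulated data. There the share of calls that fell on unchanged genes was above the threshold, and some changed genes were missed. Alternatives used DESeq2 1.42.0, limma-voom (limma 3.58.1), other scalings and filters, and libraries left out. All 9 genes are named, with Scn9a, the 4 partner genes of smallest p and the 3 nearest profiles of each called gene. Kcnmb1, 5730480H06Rik, Kcnd3os, Dpp6, Kcnip3, P2rx3, the other named markers and Myh6, Tnnt2 and Actc1 were chosen after their values were seen. No 2 libraries were duplicates (chi-square per degree of freedom at least 5.64 within groups). Replicate numbers follow the order of deposition and pair no samples. The labels give no batch. 1 gene of the partner list is not reported here and was left out of its counts. The members and lists were chosen with earlier results of these data known. Figures were drawn with matplotlib 3.10.9.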

Additional observations from a re-analysis of the deposited data

How the results depend on the processing

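Of the 9 genes, 7 kept the sign of their log2 fold change under all 18 alternatives, of which 4 were chosen after seeing the data. The exceptions were Kcnc2 (-0.094 to 0.022 with 1 library left out, positive without control replicate 1) and Kcnip4 (-0.068 to 0.018, with 0.018 without control replicate 1 and 0.014 without knockout replicate 2). Scn9a ranged from -0.086 to 0.0049, positive without control replicate 1. Of the 9 genes, 0 to 4 were called with 1 library left out, and 1, Kcnc4, without control replicate 2 and knockout replicate 3 together. With the genes inside them subtracted 2 were called, and with DESeq2's size factors in edgeR also 2. Over all genes, 160 were called, against 254 with no count filter, 420 by DESeq2 and 60 to 549 with 1 library left out (69, 60 and 76 without control replicate 1, 2 or 3 and 549 without knockout replicate 3). Of the partner genes, 0 to 1 were called with 1 library left out, Kcnab2 without knockout replicate 3 (edgeR adjusted p 0.0244). The causes of these changes were not tested. No paired analysis was possible because the labels give no litter or number that ties a knockout animal to a control animal. At 210 to 232 counts in knockout and 125 to 175 in control libraries, depth limits Kcnd2 most.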
